A study of Mus musculus with 12 samples.

Results

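The genes described here are 10 lysine methyltransferases of the nucleus, Kmt2a, Kmt2c, Kmt2d, Kmt2e, Setd2, Setd1b, Ash1l, Nsd1, Ehmt1 and Setdb1, and they were chosen by symbol out of the 31208 genes in the deposited table. They were picked with their levels in these mice known, so their own values are a description and carry no test. RNA was measured in brains of 12 C57BL/6 mice aged 8 weeks, with 4 mice in each of 3 groups. The groups were sham-operated mice, mice with ischemia for 6 h preconditioned with vehicle, and mice with ischemia for 6 h preconditioned with lactate. Per the study's methods, ischemia was made by MCAO (occlusion of the middle cerebral artery), and either sterile saline or lactate had been given the day before by i.c.v. injection, that is, into a ventricle of the brain. The form of lactate is not in the labels, and the methods call it D-lactate. The labels do not say that sham mice received an injection. Lactate given without ischemia is not among the groups, and the labels name the tissue only as brain. Since the labels number the mice separately, each mouse was taken as a replicate. The comparisons ask how ischemia changed the level of these transcripts, and whether lactate preconditioning changed it further.

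Histone lysine methyltransferases transfer methyl groups from S-adenosylmethionine to lysines in histone tails, mostly through a SET domain. Methylation of lysine 4 of histone H3 (H3K4) marks promoters and enhancers that are in use, methylation of lysine 36 (H3K36) marks the bodies of transcribed genes, and methylation of lysine 9 (H3K9) marks silenced chromatin. In the brain, several of these enzymes are known from neurodevelopmental disorders that arise when 1 copy is lost, among them Kmt2d in Kabuki syndrome, Nsd1 in Sotos syndrome and Ehmt1 in Kleefstra syndrome. In this set, Kmt2a, Kmt2c, Kmt2d and Setd1b write H3K4 methylation, Kmt2e belongs to the same KMT2 family by name but has little known activity of its own, Setd2, Nsd1 and Ash1l write H3K36 methylation, and Ehmt1 and Setdb1 write H3K9 methylation.

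All 10 are large genes with long transcripts. On GRCm38, the 4 KMT2 genes lie at chr9:44803355-44881296 on the minus strand (Kmt2a), chr5:25271798-25498783 on the minus strand (Kmt2c), chr15:98831669-98871204 on the minus strand (Kmt2d) and chr5:23434441-23504235 on the plus strand (Kmt2e), and Setd1b lies at chr5:123142193-123168629 on the plus strand. The H3K36 writers lie on the plus strand at chr9:110532597-110618633 (Setd2), chr13:55209782-55318325 (Nsd1) and chr3:88950622-89079375 (Ash1l). The H3K9 writers lie on the minus strand at chr2:24789928-24919614 (Ehmt1) and chr3:95323525-95357202 (Setdb1). The longest annotated transcript ranges from 4658 bases in Setdb1 to 19823 bases in Kmt2d, with a median of 10250 bases, against a median of 3238 bases over 13165 tested genes with a known length. Exons of Kmt2a, Kmt2c, Kmt2e, Ash1l and Setdb1 overlap those of a gene on the other strand, the longest being 972 bases shared by Kmt2e and Srpk2, and Ehmt1 shares 21 bases with Gm37139 on its own strand. The study's methods describe mapping to the genome and a check of transcripts against the annotation. How reads were counted per gene, and whether strand was used, is not given in the sources used here. The gene to which reads from these stretches were counted is therefore not known here.

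Promoter sequence was found in RefSeq (GRCm38.p6) for 6 of the 10 genes, and the 250 bases before the transcription start of 3 of them are shown as 1 gene for each residue among those whose levels were furthest below sham. Capitals mark the letters GGGCGG, the core of the box bound by Sp1, and CCGGAAG, the core of the site bound by ETS factors, each on either strand.
Kmt2a, chr9:44881290-44881539, minus strand: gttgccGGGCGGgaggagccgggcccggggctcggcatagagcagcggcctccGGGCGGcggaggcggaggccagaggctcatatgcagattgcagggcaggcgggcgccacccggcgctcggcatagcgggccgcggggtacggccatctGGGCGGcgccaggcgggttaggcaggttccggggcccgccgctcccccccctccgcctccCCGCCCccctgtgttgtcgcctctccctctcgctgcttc
Setd2, chr9:110532347-110532596, plus strand: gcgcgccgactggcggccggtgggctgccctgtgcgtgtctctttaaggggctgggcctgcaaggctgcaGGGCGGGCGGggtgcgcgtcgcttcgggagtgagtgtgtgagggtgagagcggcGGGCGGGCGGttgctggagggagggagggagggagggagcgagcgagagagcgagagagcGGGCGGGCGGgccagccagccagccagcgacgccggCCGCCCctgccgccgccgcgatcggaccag
Setdb1, chr3:95357203-95357452, minus strand: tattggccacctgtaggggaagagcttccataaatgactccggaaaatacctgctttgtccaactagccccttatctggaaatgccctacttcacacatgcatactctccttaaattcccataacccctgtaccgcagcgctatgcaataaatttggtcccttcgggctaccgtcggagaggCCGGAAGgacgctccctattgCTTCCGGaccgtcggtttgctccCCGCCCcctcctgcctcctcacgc
The letters GGGCGG were present in 6 of 6 windows, against 32.74% of 32851 promoter windows of the same length, and CCGGAAG was present only in that of Setdb1, against 6.91%. None of the 6 held TATAAA, which 12.37% of all windows hold. The windows were rich in G and C, with a median of 72.6% against 52.4% over all windows, from 54.4% in Setdb1 to 91.6% in Kmt2c. They held a median of 27.5 CpG dinucleotides against 6. A match of letters is a description of the sequence only, and no binding was measured.

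Total counts ranged from 6815920 to 10677224 reads per mouse. Levels are given in CPM (the reads of a gene relative to the library total of the mouse), and fold changes are on the log2 scale with standard errors (SE) from edgeR after TMM scaling, over genes with at least 1 CPM in at least 4 of the 8 mice compared. Vehicle mouse 1, which has the deepest library, stood apart from the rest on the second principal component, at 66.9 against -21.8 to -7.89 in the other 3 vehicle mice. Values of named genes that it moves most are given below with and without it, and each comparison was also run with each of its 8 mice left out in turn. Both ischemic groups are compared with the same 4 sham mice, so those comparisons are not independent.

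The 10 methyltransferases together were lower in ischemic than in sham brains. Their summed level was 336.3, 281.3, 299.9 and 278.0 CPM in the 4 sham mice, 270.0, 240.9, 220.3 and 222.7 CPM in the vehicle mice, and 184.6, 209.0, 237.7 and 241.8 CPM in the lactate mice. No ischemic mouse reached the lowest sham mouse, while the vehicle and lactate mice overlapped. The mean sum was 299 ± 26.7 CPM (SD, n = 4) in sham mice, 238 ± 22.9 in vehicle mice (228 ± 11.2 without vehicle mouse 1) and 218 ± 26.8 in lactate mice. In bulk tissue, fewer cells of a type that express these genes and less RNA per cell cannot be told apart. The mean level was highest in sham mice for 9 of 10 genes, the exception being Setd1b, and it ran in the order sham, vehicle, lactate for 8 of them. Without vehicle mouse 1, the vehicle mean of Setd1b was 3.95 CPM, below its sham mean of 4.23 CPM. That of Ash1l was then 32.3 CPM, below its lactate mean of 37.9 CPM.

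**Figure D1:**
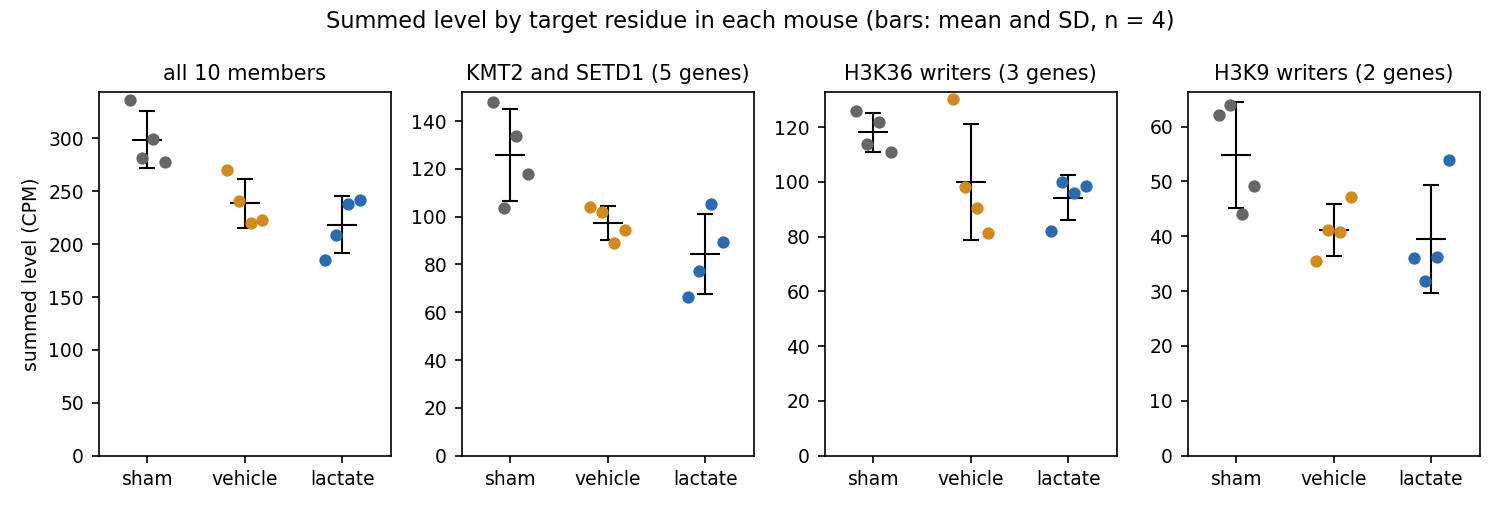
Summed level in CPM (vertical axes, from 0) of all 10 members, of the 5 KMT2 and SETD1 genes, of the 3 H3K36 writers and of the 2 H3K9 writers, for each mouse (points) by group (horizontal axes), with mean and SD. In the first panel all 4 sham mice, from 278.0 to 336.3 CPM, lie above all 8 ischemic mice, and in the third panel vehicle mouse 1, at 130.3 CPM, lies above the other vehicle mice.

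Against sham mice, the median log2 fold change of the 10 genes was -0.24 in vehicle mice, where it was 0.0031 over all 17019 genes tested, and -0.48 in lactate mice, where it was -0.03 over 17262 genes. Directly against vehicle mice, the median in lactate mice was -0.13, with -0.03 over 17419 genes. In that comparison the medians of the other methyltransferases, the demethylases and the complex partners described below were -0.15, -0.14 and -0.09, so the members did not stand apart from them. The limits used here for a call, a fold change of 1.5 or more at an unadjusted p below 0.05, are called the 1.5-fold limits. The study's methods give the same limits and also describe adjusted p-values, so which p they were set on there is not settled here. At these limits, 0 of the 10 were lower in vehicle mice (3.01% of all tested genes), 5 of 10 in lactate mice (5.65% of all tested genes), and 1 of 10 in lactate against vehicle mice (2.47%). The 5 are Kmt2a, Kmt2e, Setd2, Setd1b and Setdb1, and the 1 is Setd1b. With the adjusted p of edgeR under 0.05, 4 of 10 were lower in lactate than in sham mice (3.55%), without Setd1b, and 0 in the other 2 comparisons (0.182% of genes with vehicle and 0.00574% between the ischemic groups). At an unadjusted p under 0.05 alone, 4 were lower in vehicle mice (5.21%), 6 in lactate mice (11.4%) and 2 in lactate against vehicle mice (3.93%). These counts describe genes that were chosen on the same mice. The 5 genes past the 1.5-fold limits rest on sham mouse 1 in particular, which had the highest level of Kmt2a, Kmt2e, Setd2 and Setdb1. Without it, 0 of 10 passed either rule, and without lactate mouse 2, 1 passed each. Without lactate mouse 1, 2 passed each rule, without lactate mouse 4, 3 passed each, and without sham mouse 3 or sham mouse 4, 4 passed the 1.5-fold limits and 2 the adjusted p. With limma voom, 2 passed the 1.5-fold limits and 3 the adjusted p. At a filter of 5 CPM or with only Ensembl genes, 3 passed the 1.5-fold limits and 2 the adjusted p. With vehicle against sham, 1 passed the 1.5-fold limits with upper-quartile scaling and without sham mouse 3 or vehicle mouse 2 or 3, and this 1 was Setdb1. Between lactate and vehicle mice, 0 passed the 1.5-fold limits without vehicle mouse 1 or lactate mouse 2, 3 or 4, and 2 passed them without vehicle mouse 4. All 10 fold changes of lactate mice against sham were below 0 (53.1% of all tested genes), as were 9 of those of vehicle mice (49.6%) and 9 between lactate and vehicle mice (54.4%), but with vehicle Kmt2c and Kmt2d were so close to 0 that under several alternatives 7 were below it. In lactate mice against sham, the values of Kmt2d and Ash1l turned to 0.11 and 0.05 once the trend with transcript length was subtracted. Kmt2d was at 0.027 without sham mouse 3, and 9 of 10 were below 0 there and without lactate mouse 1.

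**Figure D2:**
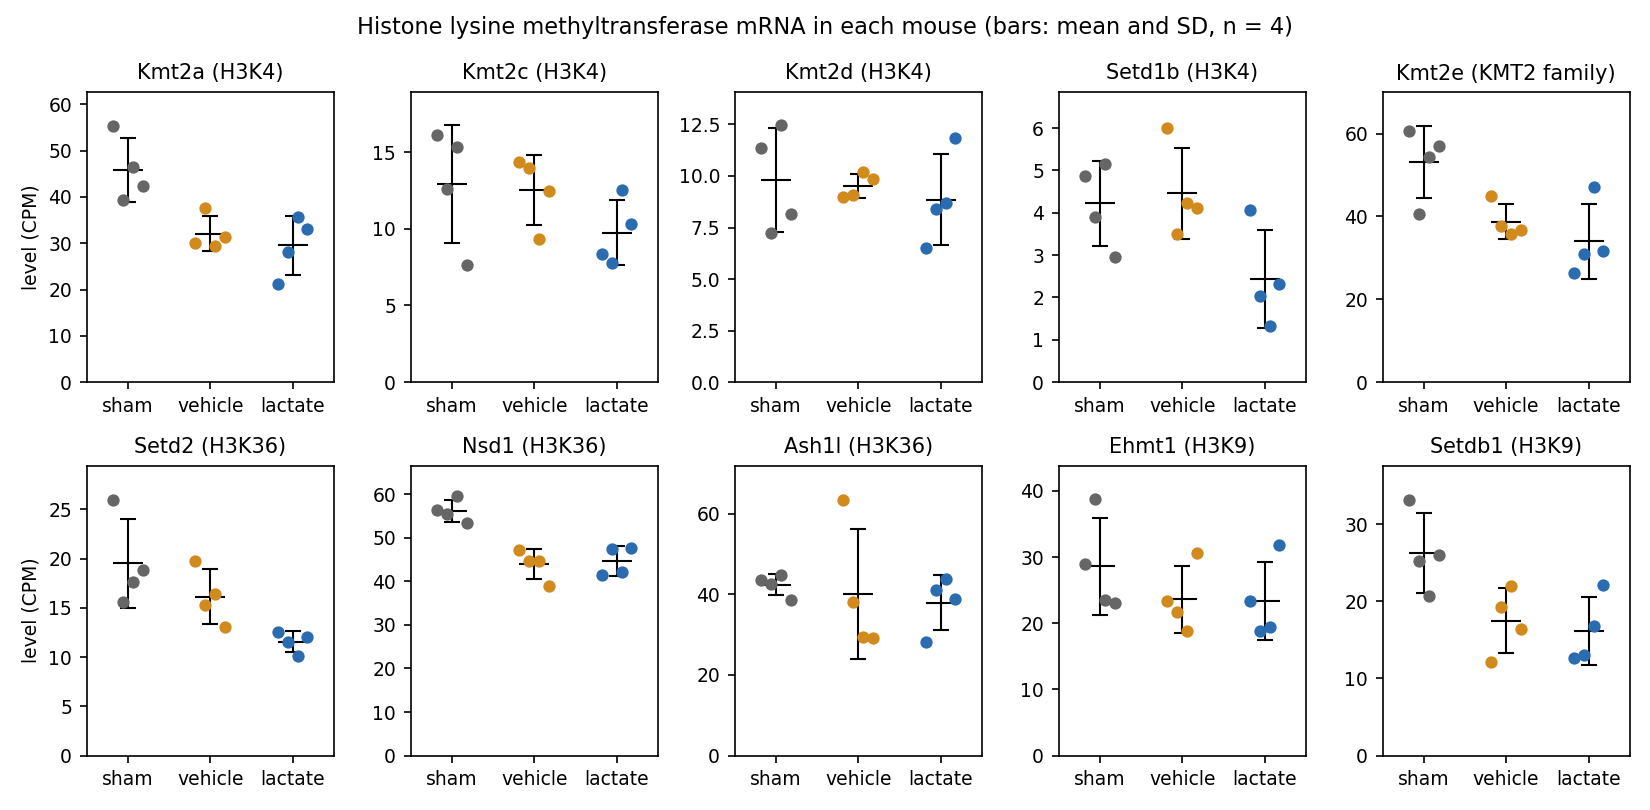
Level in CPM (vertical axes, from 0) of each of the 10 members in every mouse (points) by group, with mean and SD. Kmt2a and Nsd1 in both ischemic groups and Setd2 in lactate mice lie wholly below the sham mice, whereas Kmt2d and Ehmt1 overlap in every pair of groups.

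Among the H3K4 writers, Kmt2a, which keeps developmental and neuronal genes active, was below every sham mouse in all 8 ischemic mice. It was at 55.3, 39.3, 46.4 and 42.3 CPM in sham mice, at 30.0, 37.6, 29.4 and 31.3 CPM in vehicle mice, and at 21.2, 28.1, 35.7 and 33.2 CPM in lactate mice. The lowest sham mouse was above the highest mouse of either ischemic group. Groups lying wholly below sham mice were seen for 4.89% of all tested genes with vehicle and 8.74% with lactate. The log2 fold change of Kmt2a against sham was -0.48 (SE 0.15) in vehicle mice and -0.60 (SE 0.16) in lactate mice, where its level was 1.51-fold lower, and between the ischemic groups it was -0.14 (SE 0.18).

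Kmt2e, also known as Mll5, reads H3K4 methylation through its PHD finger and was among the most abundant of the set. Sham mice had 60.5, 40.6, 54.3 and 57.0 CPM, vehicle mice 45.0, 37.7, 35.7 and 36.7 CPM, and lactate mice 26.2, 30.9, 47.1 and 31.7 CPM. Sham mouse 2 fell within the ischemic range, so the groups overlapped, although all ischemic mice were below the sham mean. Its log2 fold change against sham was -0.41 (SE 0.16) with vehicle and -0.61 (SE 0.17) with lactate, and lactate differed from vehicle by -0.22 (SE 0.19).

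Setd1b, a catalytic subunit of the COMPASS complex that methylates H3K4 at promoters, was the least abundant member and the only one past the 1.5-fold limits between lactate and vehicle mice with all 8 mice in the fit. It had 4.88, 3.90, 5.16 and 2.96 CPM in sham mice, 5.99, 3.50, 4.23 and 4.11 CPM in vehicle mice, and 4.06, 2.04, 1.32 and 2.32 CPM in lactate mice. Lactate mouse 1 lay among the mice of the other groups, and the other 3 lactate mice lay below all sham and vehicle mice. These levels come from 10 to 64 reads per mouse. Its log2 fold change was 0.13 (SE 0.27) in vehicle mice against sham, -0.76 (SE 0.33) in lactate mice against sham and -0.91 (SE 0.35) in lactate against vehicle mice. The last ranged from -1.26 without lactate mouse 1 to -0.70 without lactate mouse 3, and it was no longer past the 1.5-fold limits without vehicle mouse 1 or without lactate mouse 2, 3 or 4. The first turned to -0.06 without vehicle mouse 1. The second ranged from -1.11 without lactate mouse 1 to -0.55 without lactate mouse 3, and passed the 1.5-fold limits in 2 of the 8 fits with a mouse left out. At a filter of 5 CPM Setd1b was not tested.

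Kmt2c and Kmt2d, the catalytic subunits of the complexes that mark enhancers, differed little between sham and vehicle mice. Kmt2c ranged from 7.65 to 16.1 CPM in sham mice (median 13.97), from 9.34 to 14.3 CPM in vehicle mice (median 13.2) and from 7.78 to 12.5 CPM in lactate mice (median 9.35). Kmt2d ranged from 7.25 to 12.5 CPM (median 9.74), from 8.99 to 10.2 CPM (median 9.45) and from 6.49 to 11.8 CPM (median 8.54) in the same order. All 3 groups overlapped for both genes. Against sham, the log2 fold change with vehicle was -0.0004 (SE 0.25) for Kmt2c and -0.0002 (SE 0.21) for Kmt2d, and its sign differed between alternatives for both. With lactate, it was -0.37 (SE 0.23) for Kmt2c and -0.10 (SE 0.22) for Kmt2d.

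Summed over the 5 KMT2 and SETD1 genes, the level was 126 ± 19.2 CPM (SD, n = 4) in sham mice, 97.3 ± 7.02 in vehicle mice and 84.6 ± 16.7 in lactate mice. Sham mouse 2, at 103.7 CPM, overlapped vehicle mouse 1, at 104.2 CPM, and lactate mouse 3, at 105.4 CPM.

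Of the H3K36 writers, Setd2, which places the trimethyl mark behind elongating RNA polymerase II, was the one whose lactate mice lay below both other groups. Its levels were 25.98, 15.6, 17.7 and 18.9 CPM in sham mice, 19.8, 15.3, 16.4 and 13.1 CPM in vehicle mice, and 12.6, 11.5, 10.2 and 12.1 CPM in lactate mice. The highest lactate mouse was below the lowest vehicle mouse, a pattern found for 1.83% of all genes tested in that comparison, and sham and vehicle mice overlapped. Its log2 fold change with lactate was -0.72 (SE 0.17) against sham, a 1.64-fold lower level, and -0.50 (SE 0.19) against vehicle, while vehicle against sham gave -0.23 (SE 0.20). Over all 19 alternatives, the first stayed between -0.80 and -0.56 and the second between -0.59 and -0.38. The value of vehicle against sham ran from -0.34 without vehicle mouse 1 to -0.08 without sham mouse 1.

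Nsd1, which writes the dimethyl mark at H3K36, was lower by a like amount in both ischemic groups. Sham mice had 56.4, 55.5, 59.5 and 53.4 CPM, vehicle mice 47.1, 44.7, 44.7 and 39.0 CPM, and lactate mice 41.4, 47.4, 42.2 and 47.7 CPM. All 8 ischemic mice were below all sham mice, and the 2 ischemic groups overlapped. With the smallest spread among sham mice of any member (a coefficient of variation of 4.49%), its log2 fold change was -0.32 (SE 0.13) with vehicle and -0.30 (SE 0.11) with lactate, and 0.0033 (SE 0.14) between them. After the trend with transcript length was subtracted, the values against sham were -0.22 and -0.12.

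Ash1l, the other dimethyltransferase for H3K36, had a vehicle mean set largely by 1 mouse. It was at 43.6, 42.6, 44.8 and 38.6 CPM in sham mice, at 63.4, 38.1, 29.5 and 29.2 CPM in vehicle mice, and at 28.1, 41.0, 43.8 and 38.8 CPM in lactate mice. Vehicle mouse 1 was the highest of all 12 mice, and the other 3 vehicle mice were below every sham mouse. The log2 fold change of vehicle mice was -0.04 (SE 0.23) against sham and became -0.36 without vehicle mouse 1. Lactate mice differed by -0.13 (SE 0.14) from sham and by -0.11 (SE 0.25) from vehicle, the latter turning to 0.22 without vehicle mouse 1.

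The sum of the 3 H3K36 writers was 118 ± 7.07 CPM (SD, n = 4) in sham mice and 94.2 ± 8.20 in lactate mice, which did not overlap. In vehicle mice it was 100.1 ± 21.3 CPM, and 90.0 ± 8.40 without vehicle mouse 1.

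Of the H3K9 writers, Setdb1, which silences retroelements together with Trim28, was the one with the larger difference from sham. Sham mice had 33.1, 25.2, 20.6 and 26.02 CPM, vehicle mice 12.2, 19.3, 22.03 and 16.4 CPM, and lactate mice 12.7, 13.1, 16.7 and 22.1 CPM. Sham mouse 3 fell below the highest vehicle and the highest lactate mouse, and the remaining 3 sham mice were above all ischemic mice. Its log2 fold change against sham was -0.55 (SE 0.21) with vehicle and -0.66 (SE 0.20) with lactate, a 1.59-fold lower level, and -0.13 (SE 0.23) between the ischemic groups.

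Ehmt1, also known as GLP, works as a dimer with Ehmt2 (G9a) to write H3K9 dimethylation. It ranged from 23.1 to 38.8 CPM in sham mice (median 26.3), from 18.8 to 30.7 CPM in vehicle mice (median 22.5) and from 18.8 to 31.8 CPM in lactate mice (median 21.5). The groups overlapped in every pair. Its log2 fold change was -0.25 (SE 0.21) with vehicle and -0.27 (SE 0.21) with lactate against sham, and -0.03 and -0.06 without sham mouse 2. Summed, the 2 H3K9 writers were at 54.8 ± 9.73 CPM (SD, n = 4) in sham mice, 41.1 ± 4.74 in vehicle mice and 39.5 ± 9.80 in lactate mice.

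**Figure D3:**
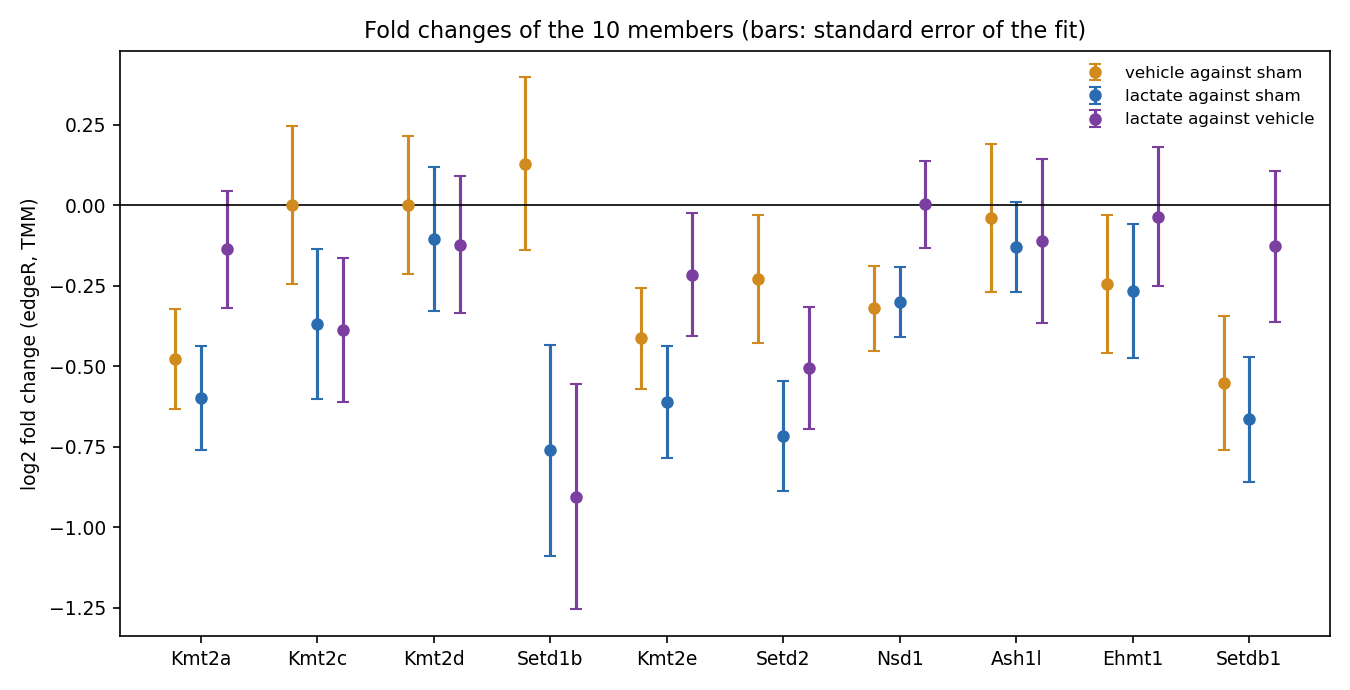
Log2 fold change from edgeR (vertical axis, with the SE of the fit as bars) of each member (horizontal axis) for the comparisons of vehicle mice with sham, lactate mice with sham and lactate mice with vehicle mice. Points for lactate against sham run from -0.76 for Setd1b to -0.10 for Kmt2d, and those between lactate and vehicle mice lie from -0.22 to 0.0033 except for Setd1b, Setd2 and Kmt2c.

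By CPM in sham mice, Nsd1 was highest at 56.2 ± 2.52 CPM (SD, n = 4), followed by Kmt2e (53.1 ± 8.73), Kmt2a (45.8 ± 6.92) and Ash1l (42.4 ± 2.70). Then came Ehmt1 (28.6 ± 7.32), Setdb1 (26.2 ± 5.15), Setd2 (19.5 ± 4.51), Kmt2c (12.9 ± 3.82), Kmt2d (9.81 ± 2.51) and Setd1b (4.23 ± 1.00). Levels per kilobase of transcript give a different order. In sham mice, Kmt2e had the highest level, 7.26 ± 1.19 CPM per kilobase (SD, n = 4), followed by Setdb1 (5.63 ± 1.11), Ehmt1 (4.80 ± 1.23), Nsd1 (4.40 ± 0.198), Ash1l (3.64 ± 0.232), Kmt2a (2.78 ± 0.420), Setd2 (2.34 ± 0.540), Kmt2c (0.863 ± 0.255), Kmt2d (0.495 ± 0.127) and Setd1b (0.477 ± 0.113). Neighbours in this order overlapped between sham mice, except Nsd1 with Ash1l and Setd2 with Kmt2c. The length is that of the longest annotated transcript. A full-length read is meant to count a molecule once whatever its length, so the CPM order is the one such reads are meant to give. Division by length moves short transcripts such as Setdb1 up.

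Correlations between members over the 12 mice include the difference between sham and ischemic mice on which the members were chosen. With it, Pearson's r of log2(CPM + 1) was above 0 in 44 of 45 pairs, with a median of 0.403, from -0.029 for Ash1l with Setdb1 to 0.871 for Kmt2a with Kmt2e. After the mean of each group had been subtracted, 33 of 45 pairs were above 0 and 12 were not, with a median of 0.19 and a range from -0.502 to 0.685. The mice share depth and group, no other gene pairs were set beside these, and the values are descriptions. Of 9564 genes with an Ensembl identifier and a mean of at least 5 CPM, those most like the members' mean profile over the 12 mice were Phldb1 (r = 0.956), Gpd2 (0.940), Mycbp2 (0.938), Jag2 (0.926) and Ylpm1 (0.923). Phldb1 was at 68.9 ± 13.4 CPM (SD, n = 4) in sham mice, 46.0 ± 9.18 in vehicle mice and 35.9 ± 8.30 in lactate mice. The genes least like it were Wdr70 (r = -0.929), 9530068E07Rik (-0.923) and Tc2n (-0.916), and Wdr70 was at 16.7 ± 2.26, 20.2 ± 3.12 and 24.03 ± 2.70 CPM in the same order.

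The other lysine methyltransferases had medians near those of all genes in the comparisons with sham. Their summed level was 796 ± 29.2 CPM (SD, n = 4) in sham, 770 ± 74.2 in vehicle and 651 ± 49.2 in lactate mice. In 7 of 8 ischemic mice this sum was below that of every sham mouse, the exception being vehicle mouse 1, at 876 CPM. All lactate mice, at up to 712 CPM, lay below all vehicle mice, at 715.5 CPM or more. Of 30 listed, 28 were tested in each comparison, and their median log2 fold change was -0.03 with vehicle and -0.06 with lactate against sham, and -0.15 between lactate and vehicle mice. With lactate against sham, 3 fell (5.65% of all tested genes fell) and 1 rose (11.9% rose) at the 1.5-fold limits. Under 0.05 for the adjusted p, 2 fell (3.55% of all tested genes fell) and 1 rose (8.76% rose). At the adjusted p, 1 to 3 fell with a mouse left out, 2 with limma voom, and 3 with DESeq2, edgeR's exact test or upper-quartile scaling. With vehicle, 1 fell (3.01% of all tested genes fell) and 1 rose (6.5% rose) at the 1.5-fold limits. With edgeR, DESeq2, limma voom or edgeR's exact test, 0 changed at an adjusted p under 0.05. An unadjusted p under 0.05 with edgeR was found for 4 of 28 (2346 of all 17019 tested genes). Between lactate and vehicle mice, 1 fell at the 1.5-fold limits (2.47% of all tested genes fell) and 0 changed at an adjusted p under 0.05 by any of these 4 tools. In this comparison 4 of 28 had an unadjusted p under 0.05 with edgeR (1540 of all 17419 tested genes).

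The named changes among them went both ways. Smyd2, which methylates p53 and other proteins besides histones, was at 159.6, 210.5, 169.9 and 172 CPM in sham mice, at 139, 140.4, 144 and 126 CPM in vehicle mice, and at 80.1, 98.7, 99.4 and 116.9 CPM in lactate mice. No 2 of these groups overlapped. It fell by 0.82 on the log2 scale with lactate against sham (SE 0.13, edgeR adjusted p = 0.00191, lower in 4 of 4 mice), and the adjusted p stayed at or below 0.00751 in 18 alternatives. Its values against sham with vehicle (-0.34, SE 0.13, adjusted p = 0.275) and against vehicle with lactate (-0.50, SE 0.13, adjusted p = 0.466) did not pass.

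Setd5, a SET domain protein linked to intellectual disability, was at 89.4 ± 15.4 CPM (SD, n = 4) in sham, 69.3 ± 8.34 in vehicle and 55.6 ± 12.5 in lactate mice. It fell by 0.65 on the log2 scale with lactate against sham (SE 0.17, edgeR adjusted p = 0.0215), with 4 of 4 lactate mice below the sham mean. The groups overlapped, with the lowest sham mouse at 66.4 CPM and the highest lactate mouse at 69.9 CPM. The adjusted p was over 0.05 without lactate mouse 1 or 4 or without sham mouse 1, 3 or 4, reaching 0.0662. Its values with vehicle against sham (-0.33, SE 0.16, edgeR adjusted p = 0.384) and between lactate and vehicle mice (-0.34, SE 0.18, adjusted p = 0.605) did not pass. Kmt5a, the monomethyltransferase of lysine 20 of histone H4, was at 7.16 ± 1.76 CPM in sham, 10.7 ± 4.17 in vehicle and 12.7 ± 1.62 in lactate mice. With lactate against sham it rose by 0.86 on the log2 scale (SE 0.20, edgeR adjusted p = 0.0128, higher in 4 of 4 mice), also with any mouse left out. With vehicle, Kmt5a was the 1 other methyltransferase that rose at the 1.5-fold limits, at 0.63 (SE 0.28, edgeR adjusted p = 0.337). That value was 0.32 without vehicle mouse 1, which was at 16.8 CPM, and Kmt5a did not pass these limits with limma voom or upper-quartile scaling, or without sham mouse 2, 3 or 4 or vehicle mouse 1 or 2. Kmt2b, the KMT2 gene most like Kmt2a, was at 10.8 ± 2.28 CPM in sham, 6.72 ± 1.24 in vehicle and 6.18 ± 1.96 in lactate mice. It passed the 1.5-fold limits against sham with vehicle (-0.65, SE 0.23, edgeR adjusted p = 0.232), but not with limma voom, where the 1 other methyltransferase that passed was Suv39h2, nor without sham mouse 2 or vehicle mouse 1 or 4, and with lactate (-0.78, SE 0.26, adjusted p = 0.0639), but not without lactate mouse 4. The adjusted p with lactate was 0.0419 with DESeq2 and 0.0333 with edgeR's exact test. Prdm8, a repressor in neurons, passed them between lactate and vehicle mice (-1.11, SE 0.37, edgeR adjusted p = 0.496) at 6 to 42 reads per mouse, also with any mouse left out.

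Other well known writers passed neither rule in any comparison. Ehmt2, the partner of Ehmt1, was at 96.7 ± 18.3 CPM (SD, n = 4) in sham, 109.8 ± 19.5 in vehicle and 91.7 ± 12.03 in lactate mice. Ezh2, the writer of H3K27 methylation in Polycomb repressive complex 2, was at 3.84 ± 2.54, 3.55 ± 1.60 and 3.72 ± 1.26 CPM in the same order. Dot1l, the writer of H3K79 methylation, was at 43.8 ± 7.32, 43.9 ± 12.1 and 52.3 ± 26.9 CPM.

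Among lysine demethylases, the enzymes that remove these marks, 22 of 23 listed were tested. At the 1.5-fold limits, 3 rose and 0 fell with vehicle (6.5% of all tested genes rose and 3.01% fell), while 2 rose (11.9%) and 1 fell (5.65%) with lactate against sham. The count with vehicle was 0 with upper-quartile scaling, 2 at a filter of 5 CPM, 4 with DESeq2 or edgeR's exact test, 3 that rose (Phf2, Jmjd1c and Kdm6b) and 1 that fell (Kdm6a) with limma voom, and 0 to 3 that rose with a mouse left out, with 0 without sham mouse 3 and 1 without sham mouse 4 or without vehicle mouse 3. Kdm2b, which demethylates H3K36 and brings a Polycomb complex to CpG islands, was at 15.7, 14.8, 9.91 and 12.7 CPM in sham mice, at 25.3, 15.7, 12.7 and 26.4 CPM in vehicle mice, and at 19.2, 24.4, 22.9 and 24.6 CPM in lactate mice. All lactate mice were above all sham mice (10.4% of all tested genes), with a log2 fold change of 0.81 (SE 0.17, edgeR adjusted p = 0.00821), and it was the 1 demethylase with an adjusted p under 0.05 in this comparison. With vehicle, 0 passed an adjusted p under 0.05 with edgeR, limma voom or edgeR's exact test, and 1 did with DESeq2. An unadjusted p under 0.05 with edgeR was found for 3 of 22 (2346 of all 17019 tested genes).

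The 3 that passed the 1.5-fold limits with vehicle were Phf2 (0.64, SE 0.28, edgeR adjusted p = 0.333), Kdm2b (0.63, SE 0.25, adjusted p = 0.3001) and Jmjd1c (0.60, SE 0.17, adjusted p = 0.138). Phf2 did not pass without sham mouse 2, 3 or 4 or vehicle mouse 3 or 4, Kdm2b without sham mouse 3 or 4 or vehicle mouse 1 or 4, and Jmjd1c without sham mouse 2 or 3 or vehicle mouse 2 or 3. Kdm6b, the H3K27 demethylase induced in inflammation, was at 3.77 ± 1.57 CPM (SD, n = 4) in sham, 6.35 ± 2.84 in vehicle and 7.67 ± 4.65 in lactate mice. Against sham, it passed the 1.5-fold limits with lactate (1.05, SE 0.39) but not the adjusted threshold (edgeR adjusted p = 0.100). Lactate mouse 2 was at 14.6 CPM, and without it the value was 0.53 (adjusted p = 0.347) and did not pass these limits, nor did it without sham mouse 4. Phf8, a demethylase linked to X-linked intellectual disability, was the 1 that passed them downward against sham (-0.78, SE 0.28, edgeR adjusted p = 0.0833) and against vehicle (-0.64, SE 0.28, adjusted p = 0.550) with lactate. The first did not pass without sham mouse 4 or lactate mouse 4, and the second with upper-quartile scaling, with only Ensembl genes, or without lactate mouse 1, 2 or 4 or vehicle mouse 3 or 4.

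Partner proteins of the methyltransferase complexes were tested for 31 of 33 genes, and their median log2 fold change was -0.05 with vehicle and -0.06 with lactate against sham. At an adjusted p under 0.05, 2 of 31 fell (3.55% of all tested genes fell) and 0 rose (8.76% rose) with lactate against sham, and 1 of 31 fell in each of the 8 fits with a mouse left out. Ncoa6, a subunit of the complexes around Kmt2c and Kmt2d, was at 18.8 ± 3.64 CPM (SD, n = 4) in sham, 12.6 ± 2.65 in vehicle and 10.9 ± 0.724 in lactate mice. It fell by 0.76 on the log2 scale with lactate against sham (SE 0.17, edgeR adjusted p = 0.0128), with all lactate mice below all sham mice, and also with any mouse left out. Mtf2, an accessory subunit of Polycomb repressive complex 2, was at 18.4 ± 1.37 CPM in sham, 16.3 ± 4.06 in vehicle and 12.6 ± 1.71 in lactate mice. Against sham it fell by 0.51 with lactate (SE 0.15, edgeR adjusted p = 0.0429), also without overlap, but its adjusted p was between 0.0582 and 0.108 with any mouse left out and 0.113 with all 12 mice in 1 fit, and it was over 0.05 with limma voom, at a filter of 5 CPM and with only Ensembl genes. Bod1l, which binds the Setd1 complexes, was the 1 partner past the 1.5-fold limits with vehicle (-0.60, SE 0.23, edgeR adjusted p = 0.262), but not at a filter of 5 CPM, with only Ensembl genes, or without sham mouse 1 or 4 or vehicle mouse 2, 3 or 4. With vehicle, 0 of 31 had an adjusted p under 0.05 and 2 an unadjusted p under 0.05 with edgeR (2346 of all 17019 tested genes had the latter). Between lactate and vehicle mice these counts were 0 and 3 (1540 of all 17419 tested genes for the latter). In both comparisons 0 adjusted calls also came from DESeq2, limma voom and edgeR's exact test.

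**Figure D4:**
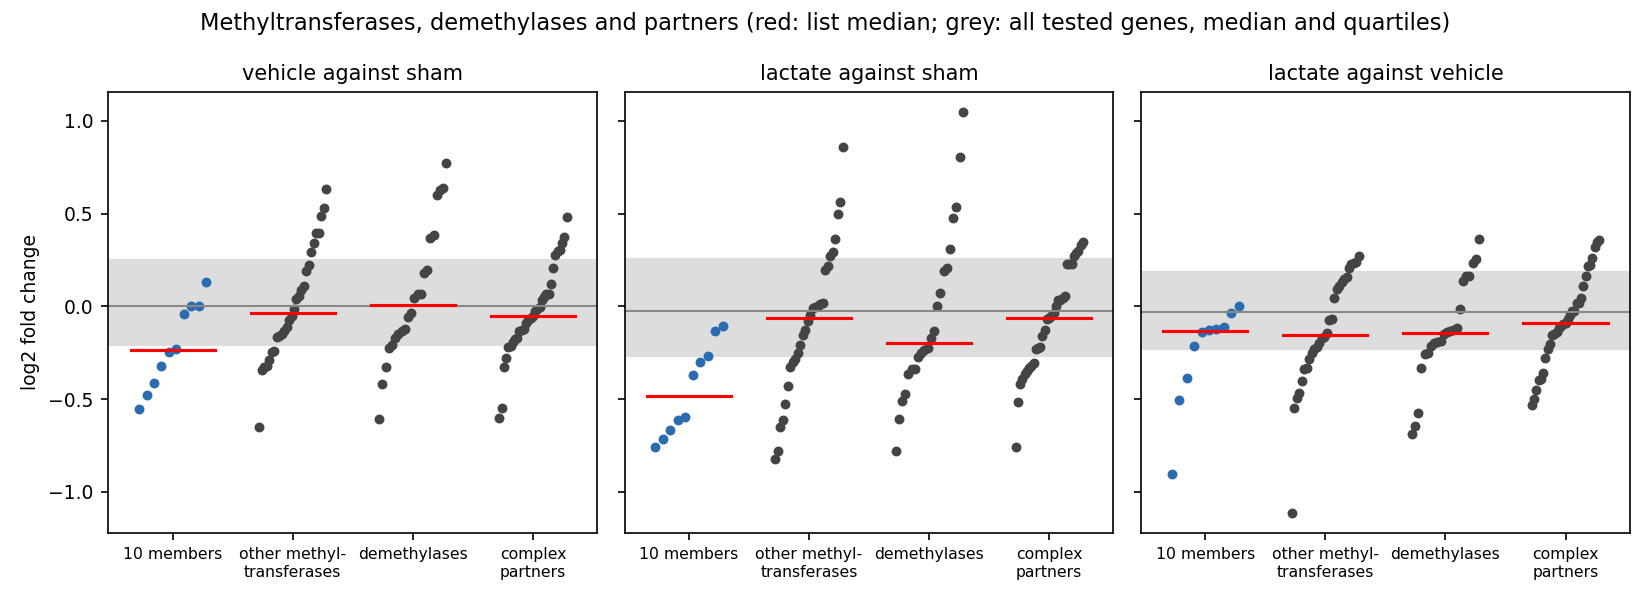
Log2 fold change (vertical axis) of the 10 members, the other lysine methyltransferases, the demethylases and the complex partners (points, ordered by value within each list) in the 3 comparisons, with the list median in red and the median and quartiles of all tested genes in grey. With lactate against sham the members' median is -0.48, while those of the other lists are -0.06, -0.20 and -0.06. Between lactate and vehicle mice the members' median is -0.13, and those of the other lists are -0.15, -0.14 and -0.09.

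Fold changes also differed by transcript length. Over all tested genes, the median log2 fold change with lactate against sham was -0.02 for transcripts under 2 kb, -0.18 for those of 8 to 12 kb and -0.18 for those over 12 kb, and with vehicle it was -0.0015, -0.08 and -0.10. The members are longer than 73.42% (Setdb1) to 99.89% (Kmt2d) of tested genes. With the trend on length subtracted, their median was -0.19 with vehicle, -0.28 with lactate against sham and -0.04 with lactate against vehicle.

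**Figure D5:**
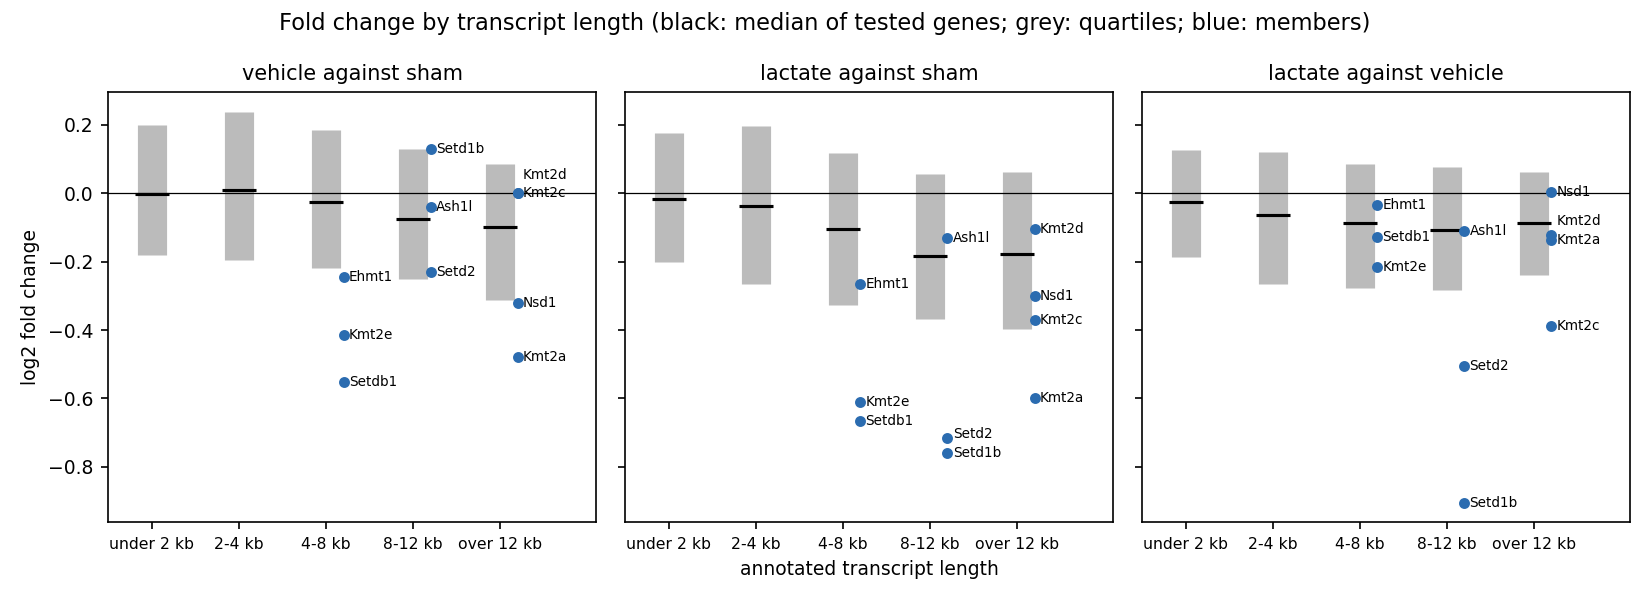
Log2 fold change (vertical axis) by class of annotated transcript length (horizontal axis) for the 3 comparisons, with the median of tested genes as black lines, the quartiles as grey bars and the members as blue points with their names. Setd2, Setd1b, Kmt2e, Setdb1 and Kmt2a lie below the lower quartile of their class with lactate against sham.

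Markers of the cells that the tissue can hold differed as follows. The 8 neuronal markers summed to 4627, 4846, 4587 and 4771 CPM in sham mice, to 5471, 4097, 3862 and 3938 CPM in vehicle mice and to 3667, 4385, 4522 and 4501 CPM in lactate mice. In 7 of 8 ischemic mice this sum was below that of every sham mouse, the exception being vehicle mouse 1, without which the vehicle mean was 3965 ± 120 CPM (SD, n = 3). Of these markers taken singly, 0 of 8 passed an adjusted or unadjusted p under 0.05 with edgeR in any comparison. Of 6 astrocyte markers only Gfap passed an adjusted p under 0.05, rising by 1.64 (SE 0.31, edgeR adjusted p = 0.0201) with vehicle and 2.47 (SE 0.18, adjusted p = 1.99e-06) with lactate, and the sums ran from 592 to 889, from 794 to 871 and from 959.7 to 1014 CPM. The 6 microglial markers summed to 126 to 144 CPM in sham, 80.4 to 108 CPM in vehicle and 107 to 116 CPM in lactate mice. With lactate against sham, 4 of the 6 were above 0, with a median of 0.16. Aif1, at 25.3 to 26.3 CPM in lactate mice, was wholly above its 17.6 to 23.3 CPM in sham mice (0.29, SE 0.13, edgeR adjusted p = 0.175), and Itgam passed the 1.5-fold limits upward (0.89, SE 0.30, adjusted p = 0.0680). P2ry12 fell with vehicle (-1.01, SE 0.20, edgeR adjusted p = 0.0275) and with lactate (-1.10, SE 0.19, adjusted p = 0.00265) against sham, and Cx3cr1 with vehicle (-1.21, SE 0.23, adjusted p = 0.0201). The 6 oligodendrocyte markers summed to 7064 to 11296, 5573 to 10459 and 8859 to 9905 CPM, the 5 endothelial markers to 49.0 to 54.7, 41.8 to 60.5 and 41.0 to 66.3 CPM, and the 5 red blood cell genes to 560.4 to 633, 333 to 500.4 and 375 to 499 CPM. Single endothelial markers went both ways, from -1.51 to 1.25 with vehicle and from -1.38 to 1.06 with lactate against sham. Of these 5, 3 had an unadjusted p under 0.05 with edgeR with vehicle and 1 with lactate. In each comparison 1 fell past the 1.5-fold limits and 0 had an adjusted p under 0.05. With lactate against sham, the oligodendrocyte genes Mog (-0.60, SE 0.14, edgeR adjusted p = 0.0125) and Cnp (-0.53, SE 0.12, adjusted p = 0.0131) fell without overlap. All 5 red blood cell genes lay wholly below sham, and 4 of them fell by 0.42 to 0.61 (edgeR adjusted p from 0.0109 to 0.0267), while Alas2, at 3 to 15 reads in these mice, did not pass (-0.91, SE 0.37, adjusted p = 0.133). With vehicle, 0 of 5 red blood cell genes and 0 of 6 oligodendrocyte markers passed an adjusted p under 0.05 with edgeR, and 4 and 0 had an unadjusted p under 0.05. The 5 neutrophil markers summed to 0.446 to 2.77 CPM in sham, 8.80 to 73.2 CPM in vehicle and 16.3 to 40.2 CPM in lactate mice, with Ly6g and Mmp8 at 0 reads in all sham mice, and S100a8 and S100a9 rose in both ischemic groups and Retnlg with lactate against sham (edgeR adjusted p from 2.26e-05 to 0.0143). Of 16 RNAs held in the nucleus or spliced slowly, Malat1, Neat1, Meg3, Miat, Rian, Mirg and Kcnq1ot1 were not found in the table, so the sum leaves them out. The 9 that were found summed to 2365 to 3866, 2697 to 3275 and 1970 to 2547 CPM. Of these 9, Rsrp1 (-2.37, SE 0.39, edgeR adjusted p = 0.00205), Clk1 (-0.84, SE 0.19, adjusted p = 0.0111) and Snhg11 (-0.74, SE 0.21, adjusted p = 0.0365) fell with lactate against sham, and Rsrp1 also against vehicle (-1.84, SE 0.21, adjusted p = 0.0328). With any mouse left out, the adjusted p stayed under 0.05 against sham for Gfap, P2ry12, Mog, Cnp, Hbb-bt, S100a8, S100a9, Rsrp1 and Clk1 with lactate and for S100a8 with vehicle, but not for Gfap, P2ry12, Cx3cr1 or S100a9 with vehicle, nor for Snhg11, Hba-a1, Hba-a2 and Hbb-bs with lactate or Rsrp1 between lactate and vehicle mice. Retnlg was not tested without any 1 of the lactate mice, where it missed the filter on low levels. The part of transcript length, cell make-up or nuclear RNA in the members' levels was not tested.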

How the data were processed

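Brain RNA of 12 mice was sequenced by the authors as PCR-amplified full-length cDNA on a nanopore platform. The deposited count values are reads per gene without normalization, mapped by the authors to GRCm38, and the deposited CPM values are the same counts scaled to the total of each mouse. The submitters' processing notes name DESeq 1.10.1, and how reads were counted per gene is not given in the sources used here. P-values and fold changes that the authors deposited beside the counts were not used. Of the table, 31208 genes were kept, 4 lines with no gene were left out, and 27 symbols stored as dates were restored. Totals ranged from 6815920 to 10677224 counts.

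Groups were compared 2 at a time with edgeR 4.0.16 in R 4.3.3 (quasi-likelihood test, TMM, at least 1 CPM in at least 4 of 8 mice), with Benjamini-Hochberg adjustment over all tested genes. The study's methods describe adjusted p-values and the 1.5-fold limits, which were set on the unadjusted p here. Standard errors were derived from the F statistic. Alternatives used DESeq2 1.42.0, limma 3.58.1 (voom with quality weights), edgeR's exact test, other scalings and filters, and each mouse left out in turn. The fits were tested on simulated data. Positions and lengths are from GENCODE mouse release 21 (GRCm38), and promoters from RefSeq (GRCm38.p6). Python 3.11.15 was used for the tables.

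The members and the gene lists were chosen with earlier results of these data known. Besides the members, genes of the lists were named where an adjusted p was under 0.05 in a comparison, where they were the largest rise or fall past the 1.5-fold limits, or, for Ehmt2, Ezh2, Dot1l and Kdm6b, regardless of their values, and Jmjd1c, as 1 of only 3 demethylases that passed with vehicle, was named after its values were seen, as were Suv39h2, Kdm6a, Aif1, Itgam and Alas2. Marker genes were given as sums per list, with markers past an adjusted p under 0.05 named.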

Additional observations from a re-analysis of the deposited data

Results flagged for a closer look

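Mean levels on opposite sides of sham were found for a pair of methyltransferases outside the main set, where every vehicle mouse lay above the sham mean and every lactate mouse below it. For Prdm8, the lactate mean minus the vehicle mean was -1.58 CPM, from 2.98 CPM in vehicle to 1.40 CPM in lactate mice, with 2.17 CPM in sham mice. The direct comparison of lactate with vehicle gave a log2 fold change of -1.11 (SE 0.37, edgeR adjusted p = 0.496). Against sham, Prdm8 did not pass with vehicle (0.49, SE 0.34, edgeR adjusted p = 0.575) or with lactate (-0.61, SE 0.40, adjusted p = 0.354). The vehicle value was 0.31 without vehicle mouse 1 and 0.81 without sham mouse 2, where it passed the 1.5-fold limits. The lactate value was -0.30 without sham mouse 2.

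For Setd3, which methylates a histidine of actin, the lactate mean minus the vehicle mean was -25.9 CPM, from 98.2 to 72.4 CPM, with 82.2 CPM in sham mice. Vehicle mouse 1 was at 134 CPM and the other 3 vehicle mice were between 82.3 and 91.0 CPM. The direct comparison gave -0.47 (SE 0.17, edgeR adjusted p = 0.517), and -0.26 without vehicle mouse 1. Against sham, Setd3 did not pass with vehicle (0.29, SE 0.17, edgeR adjusted p = 0.479), where it was 0.10 without vehicle mouse 1, or with lactate (-0.15, SE 0.11, adjusted p = 0.378).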

How the results depend on the processing

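The median log2 fold change of the 10 members kept its direction in every alternative run, between -0.35 and -0.17 for vehicle against sham, between -0.56 and -0.28 for lactate against sham, and between -0.25 and -0.04 for lactate against vehicle. The fold changes of single members moved by more than the spread between replicates only for Nsd1 after the trend with transcript length was subtracted (-0.22 with vehicle and -0.12 with lactate against sham). An outlying mouse widens that spread, and signs still changed between alternatives. This held for Ash1l in every comparison, Kmt2d in both against sham, Kmt2c and Setd1b with vehicle against sham, and Ehmt1 and Nsd1 between lactate and vehicle mice. Without vehicle mouse 1, Ash1l was at -0.36 with vehicle against sham and at 0.22 between lactate and vehicle mice. The number of members past the 1.5-fold limits with lactate against sham ranged from 0 to 5, with vehicle against sham from 0 to 1, and between lactate and vehicle mice from 0 to 2.

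The number of genes called over the whole table moved with the filter and the threshold. With vehicle against sham it was 1620, and 727 at a filter of 5 CPM, 2761 without a filter, 1044 with only Ensembl genes and 250 with adjusted p-values. With lactate against sham it was 3023, and 1307, 5068 and 1518 under the first 3 of these. With lactate against vehicle it was 1085, and 512, 1742 and 537, and 1 with adjusted p-values. Fewer or more genes tested is part of how the filters are built, and otherwise the cause was not tested. Of the other methyltransferases, 2 were called with vehicle against sham, but 1 with limma voom, 1 with upper-quartile scaling, 0 with adjusted p-values, and 0 to 2 with a mouse left out. In lactate against vehicle 1 was called, but 0 at 5 CPM, 2 with limma voom, 0 with adjusted p-values, and 1 to 2 with a mouse left out.

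The labels number mice alike in each group, but these are different animals, and deviations of same-numbered mice correlated at -0.15 to 0.16. Lactate mice 1, 2 and 3 and vehicle mice 1 and 4 correlated best with the sham mouse of their own number. No lactate mouse correlated best with the vehicle mouse of its own number. So few mice cannot exclude a batch shared by number, so the main fits did not pair the mice and a block was run beside them. With the replicate number as a block, 1567, 3075 and 893 genes were called in the 3 comparisons, the members' medians were -0.23, -0.48 and -0.16, and 2, 4 and 1 other methyltransferases were called. With lactate against sham, the block brought the adjusted p of Kmt2b to 0.0176 and of Kdm6b to 0.0241, and that of Mtf2 to 0.0643. With vehicle against sham, Phf2 was short of the 1.5-fold limits with the block, and Kdm6b was past them with the block, DESeq2, limma voom, edgeR's exact test, no filter and only Ensembl genes. Depth limits genes of low level such as Setd1b (10 to 64 reads per mouse) and Prdm8 (6 to 42).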
